A study of Mus musculus with 6 samples.

Results

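Genes of protein synthesis and RNA synthesis were followed in macrophages grown from mouse bone marrow: Rpl19, Eef1g and Eif2b4, which act in translation, and Polr1b, Twistnb and Polr2a, which encode subunits of RNA polymerases. They are 6 of the 753 genes on the panel, were taken by name, and were chosen by their functions with the FHKO and control values of the same comparison already known. Their differences between the groups are therefore given as a description, and no adjusted p-value below is independent support. All 6 passed the filter on low values (20 normalised counts or above, reached by 3 or more libraries), as did 490 genes in all.

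The libraries came from wild-type mice (control, n = 3) and factor H knockout mice (FHKO, n = 3). The marrow was flushed from femur and tibia, and the cells were analysed without any treatment other than the genotype. The growth protocol, the same for all 6 libraries, gives an age of 8 to 10 weeks in a sentence on knockout and reporter mice that does not mention wild-type mice. The labels name no knockout allele, strain, sex, culture time or number of mice per library. Factor H is a soluble regulator of complement, and the gene that encodes it was not analysed here, so the genotype was not checked by expression. Nothing in the labels says that the 3 libraries of a group came from separate mice or cultures, so p-values measure the spread between these libraries, which may be technical. Of 9 macrophage markers 8 were on the panel and all 8 were tested, with Cd68 between 20835 and 24579 and Adgre1, which encodes F4/80, between 11645 and 13172 normalised counts. The summed macrophage markers lay between 48723 and 51945 in control and between 50985 and 53321 in FHKO libraries. The summed level of 7 neutrophil markers was 202 to 227 in control and 178 to 211 in FHKO libraries. Only 2 of them, S100a8 and S100a9, passed the filter. S100a8 was the largest part, between 110.5 and 134.4 in control and between 89.8 and 114.0 in FHKO libraries. S100a9 was at 31.4 or less and the other neutrophil markers at 24.25 or less in every library. Of the dendritic cell markers Itgax, which macrophages share, was at 623 to 963, and Flt3 and Ccr7 were at 18.2 or less in every library. No marker of B cells, mast cells or stromal cells on the panel exceeded 21.2, and the T cell and NK cell markers were not analysed here. The whole counts recovered from the values summed to between 717503 and 1348062 per library.

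Translation turns messenger RNA into protein on ribosomes, and its machinery is among the most abundant products of a growing cell. RNA polymerase I makes the precursor of ribosomal RNA, while RNA polymerase II makes messenger RNA. In macrophages both processes rise and fall with growth and activation, and genes of this kind are often used as references because their RNA is expected to vary little.

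The annotated transcription starts of 3 members are shown because these genes stand for the directions described below: Rpl19 lower, Polr2a nearest to no difference and Twistnb higher in FHKO. Each line gives 100 bases before the annotated start and 30 bases from it, from RefSeq on GRCm38.p6, with the first transcribed base and any TATAAA in capitals. Rpl19 has a pair of annotated starts.
Rpl19, first start, chr11:98026610-98026739, plus strand: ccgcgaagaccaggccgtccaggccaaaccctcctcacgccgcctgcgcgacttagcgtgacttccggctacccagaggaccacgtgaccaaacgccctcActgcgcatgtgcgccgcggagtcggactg
Rpl19, second start, chr11:98026824-98026953, plus strand: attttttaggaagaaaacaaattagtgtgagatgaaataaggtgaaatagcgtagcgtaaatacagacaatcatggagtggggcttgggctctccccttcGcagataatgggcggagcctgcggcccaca
Polr2a, chr11:69758604-69758733, minus strand: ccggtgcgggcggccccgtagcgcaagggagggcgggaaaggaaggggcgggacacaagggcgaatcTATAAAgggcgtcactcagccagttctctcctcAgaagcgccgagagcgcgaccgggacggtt
Twistnb, chr12:33429524-33429653, plus strand: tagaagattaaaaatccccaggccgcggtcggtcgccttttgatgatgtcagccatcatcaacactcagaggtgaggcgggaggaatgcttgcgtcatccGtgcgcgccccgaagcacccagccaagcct
RefSeq windows of 300 bases were at hand for 5 of the 6 members, 6 windows in all. TATAAA, searched on both strands, was found in 1 of these windows, that of Polr2a, where it began 33 bases before the start. Of all 32851 windows 13.6% held it. A start of the terminal oligopyrimidine kind, a C followed by 4 of C or T at the annotated first base, was found in 0 of the 6 windows and in 2.51% of all windows. These are matches of letters at annotated starts, and which start these cells used was not measured.

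Each value is called a normalised count, since the values read as a whole count per gene multiplied by 1 factor per library. At least 748 of the 753 gene values were whole multiples of such a factor in each library, within the rounding of the table. A check that starts from the lowest values did not pass in control library 2 and FHKO library 2, so the counts recovered there, and the counting errors built on them, are less certain. The values also show that these factors made the geometric mean of 16 reference genes equal in the 6 libraries. Rpl19, Eef1g, Eif2b4, Polr1b and Polr2a are among those 16, and Twistnb is not. For the first 5 members a difference is therefore one from a mean they themselves help to set. By that construction the 16 log2 differences average to about 0: the 5 members averaged -0.17 and the other 11 averaged 0.08. Levels are compared between libraries for each gene and not between genes, whose probes differ.

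Among the translation genes, Rpl19 and Eef1g had lower means in FHKO macrophages, with differences of -19.6% and -20.1%, and the ratio between them hardly differed between the group means. Rpl19 encodes a protein of the large ribosomal subunit. It was at 27829, 26158 and 23040 normalised counts in control libraries 1 to 3 and at 22309, 19956 and 19693 in FHKO libraries 1 to 3. All 3 FHKO values lay below all 3 control values, although the highest FHKO value was close to the lowest control value. The group means were 25676 ± 2431 and 20653 ± 1440 (SD, n = 3). On the scale of log2(value + 1), FHKO minus control, this was -0.31, its standard error 0.092 and its 95% interval -0.53 to -0.10 (limma, Benjamini-Hochberg adjusted p over all tested genes = 0.148). In bulk RNA, fewer cells of a type and less RNA per cell cannot be told apart, here and in all values below.

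Eef1g encodes the gamma subunit of the elongation factor complex that reloads elongation factor 1A with GTP. Its values were 4094, 3578 and 3005 in control and 3119, 2694 and 2719 in FHKO libraries. Control library 3 lay below FHKO library 1, so the groups overlapped. The means were 3559 ± 545 and 2844 ± 238 (SD, n = 3), and the log2 difference was -0.32, its standard error 0.13 (limma, adjusted p = 0.210). Within the control group alone Eef1g spanned 0.45 on the log2 scale and Rpl19 spanned 0.27, so the spread among controls was of the order of the difference between groups.

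Eif2b4 encodes the delta subunit of eIF2B, the exchange factor that recharges the initiation factor eIF2 and is the point at which stress signals slow initiation. It was read 218, 209 and 188 times after normalisation in control and 177, 191 and 177 times in FHKO libraries. FHKO library 2 lay above control library 3, and the other values were separate. The means were 205 ± 15.2 and 182 ± 8.26 (SD, n = 3), a log2 difference of -0.17 with a 95% interval from -0.43 to 0.09 (limma, adjusted p = 0.363). Counting error alone gives a standard deviation of 0.11 per control library on this scale, as large as the observed control spread of 0.11.

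The polymerase genes did not share a direction. Polr1b encodes the second-largest subunit of RNA polymerase I and Twistnb a subunit of the stalk of the same enzyme. Polr1b was at 82.9, 90.9 and 103.8 normalised counts in control and at 99.5, 76.6 and 84.2 in FHKO libraries, with the groups interleaved. Its log2 difference was -0.09 with a 95% interval from -0.46 to 0.27 (limma, adjusted p = 0.730). These values rest on 57 to 109 recovered counts per library, and their counting error of 0.16 on the log2 scale equals the control spread of 0.16.

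Twistnb differed most of the 6. It was at 97.4, 109 and 161 in control and at 198, 389 and 250 in FHKO libraries, so every FHKO value lay above every control value. The recovered counts were 67, 108 and 169 in control and 143, 467 and 223 in FHKO libraries. The nearest values of the groups were those of control library 3 and FHKO library 1, whose exact Poisson 95% intervals overlapped after normalisation (138 to 187 and 167 to 233), while those of control 1 and FHKO 2 were far apart (75.5 to 124 and 354 to 426). The means were 122 ± 33.8 and 279 ± 98.7 (SD, n = 3), a ratio of 2.28. The log2 difference was 1.16, its standard error 0.28 and its 95% interval 0.49 to 1.82 (limma, adjusted p = 0.138). It was the fourth-highest difference of the 490 genes, and it missed the threshold with the deposited scaling. Its spread was also wide inside the groups, with a highest over lowest value of 1.65 among controls and 1.97 among FHKO libraries.

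Polr2a encodes the largest subunit of RNA polymerase II, the one that carries the tail of heptad repeats. Its values were 649, 628 and 566 in control and 593, 601 and 738 in FHKO libraries, and only FHKO library 3 lay outside the control range. The log2 difference was 0.06 with a 95% interval from -0.22 to 0.34 (limma, adjusted p = 0.760). Without FHKO library 3 it was -0.039, so its direction rests on that library.

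**Figure D1:**
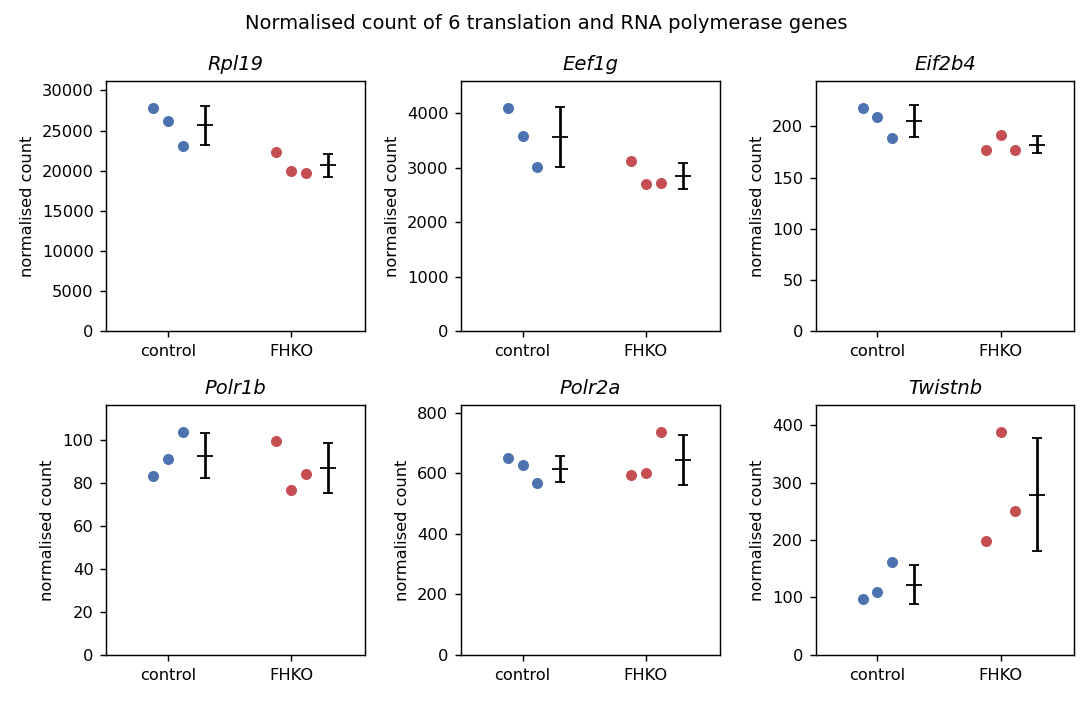
Normalised count (y axis, from 0) of each member in control (blue) and FHKO (red) libraries, 1 point per library in the order of the replicate numbers, with the mean and SD of 3 libraries in black. Rpl19 and Twistnb are the members whose groups do not overlap, Rpl19 lower and Twistnb higher in FHKO.

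In the fit over all 490 genes, 0 of the 6 members passed an adjusted p of 0.05 in limma, where 0.204% of all genes did (1 gene, Il1rn, no member and named after its values were seen). At an unadjusted p under 0.05 there were 3 members, Twistnb higher and Rpl19 and Eef1g lower, against 22.4% of all genes. The groups did not overlap for 2 of the 6 members, against 29.2% of all genes (22.9% with FHKO higher and 6.33% with FHKO lower). The median log2 difference was -0.13 over the members and 0.16 over all tested genes, and 2 members and 71.8% of all genes lay above 0. Since the members were chosen with this comparison known, nothing is read from these counts.

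The median expressed gene gives a second yardstick, one that rests on all 490 tested genes, the reference genes and members included. The median normalised count of the 490 tested genes was 225, 235 and 268 in control libraries 1 to 3 and 282, 322 and 289 in FHKO libraries 1 to 3. Every FHKO library lay above every control library, so with the deposited scaling a gene that kept pace with these medians appears higher in FHKO. The median of the 490 gene differences is another quantity. It was 0.16 with the deposited scaling and -0.13 with library medians set equal. The second yardstick therefore places a gene at the median of the differences below 0. Each member was also expressed as log2(value + 1) minus the median of that quantity over the tested genes of its library.

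Relative to the median gene, Rpl19 was at 6.95, 6.79 and 6.42 on the log2 scale in control and at 6.30, 5.95 and 6.09 in FHKO libraries. Eef1g was at 4.18, 3.92 and 3.48 in control and at 3.46, 3.06 and 3.23 in FHKO libraries, which removed its overlap by a narrow margin. Eif2b4 was at -0.04, -0.17 and -0.51 in control and at -0.67, -0.75 and -0.70 in FHKO libraries, which removed its overlap too. Polr1b, at -1.43, -1.36 and -1.36 in control and at -1.49, -2.06 and -1.76 in FHKO libraries, became separate as well. Its nearest values, those of control library 1 and FHKO library 1, lay closer than its counting error of 0.16 per library. Polr2a still overlapped, with 1.53, 1.41 and 1.08 in control and 1.07, 0.90 and 1.35 in FHKO libraries. Twistnb climbed from -1.20, -1.10 and -0.73 in control to -0.51, 0.27 and -0.20 in FHKO libraries.

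On this scale the groups did not overlap for 5 of the 6 members, 4 of them lower and 1 higher in FHKO, against 29.6% of all genes (23.3% lower and 6.33% higher). The 4 lower members are scaling genes. Since the 16 scaling genes average about 0 with the deposited scaling, they come out lower on average once library medians are set equal. The members were also chosen with this comparison known, so nothing is read from these counts. With library medians set equal, limma gave log2 differences of -0.61 for Rpl19, -0.61 for Eef1g, -0.47 for Eif2b4, -0.39 for Polr1b and -0.23 for Polr2a, none of which passed (adjusted p of 0.0549, 0.0646, 0.107, 0.195 and 0.400). Twistnb passed, at a log2 difference of 0.86, standard error 0.20, and an adjusted p of 0.0353 in limma. That setting called 2.86% of all genes, and 0.816% as higher. Moving from one yardstick to the other lowered the log2 differences of the 490 genes by 0.29 in the median. Twistnb was higher and Rpl19, Eef1g, Eif2b4 and Polr1b lower under both, while Polr2a turned from 0.06 to -0.23.

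**Figure D2:**
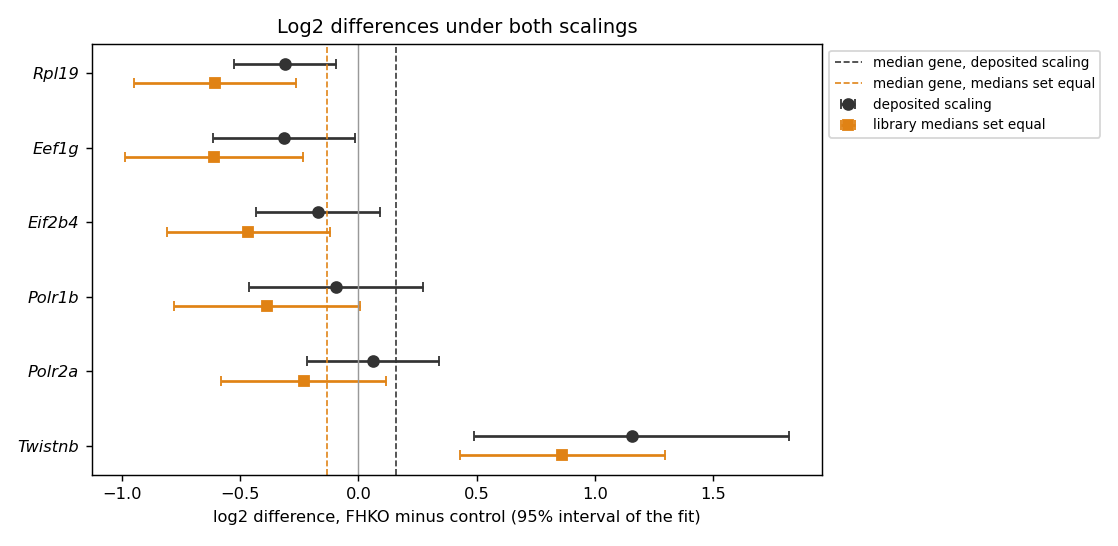
Log2 difference, FHKO minus control (x axis), of each member with its 95% interval from limma, with the deposited scaling (dark circles) and with library medians set equal (orange squares). Dashed lines mark the median difference of all 490 genes, 0.16 and -0.13, and Twistnb alone lies to the right of both lines under both scalings.

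The order of the single libraries in Twistnb, and nearly its reverse in Rpl19 and Eef1g, was that of the panel's main axis of variation. A principal component analysis of the 484 tested genes other than the members gave a first component that held 61.6% of the variance, with scores of -0.66, -0.32 and 0.02 in control libraries 1 to 3 and 0.10, 0.63 and 0.24 in FHKO libraries 1 to 3. Twistnb ordered the 6 libraries exactly as this component did, from control 1, control 2 and control 3 through FHKO 1 and FHKO 3 to FHKO 2. The median gene gave that order too. Rpl19 ran the other way, with control 1 highest and the FHKO libraries lowest, and differed from the reversed order only in the places of FHKO 2 and FHKO 3. Eef1g differed from the reversed order only in the places of control 3 and FHKO 1. Eif2b4, Polr1b and Polr2a followed neither order. The component separated the libraries inside each group as well as the groups, and its part in the differences of Rpl19, Eef1g and Twistnb was not tested. Inside each group its order, and that of Twistnb, was also the order of the summed recovered counts. These sums were 725234, 996065 and 1083621 in control libraries 1 to 3 and 717503, 1348062 and 925070 in FHKO libraries 1 to 3. Across the groups the sums did not follow the component, and the part of counting depth was not tested.

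**Figure D3:**
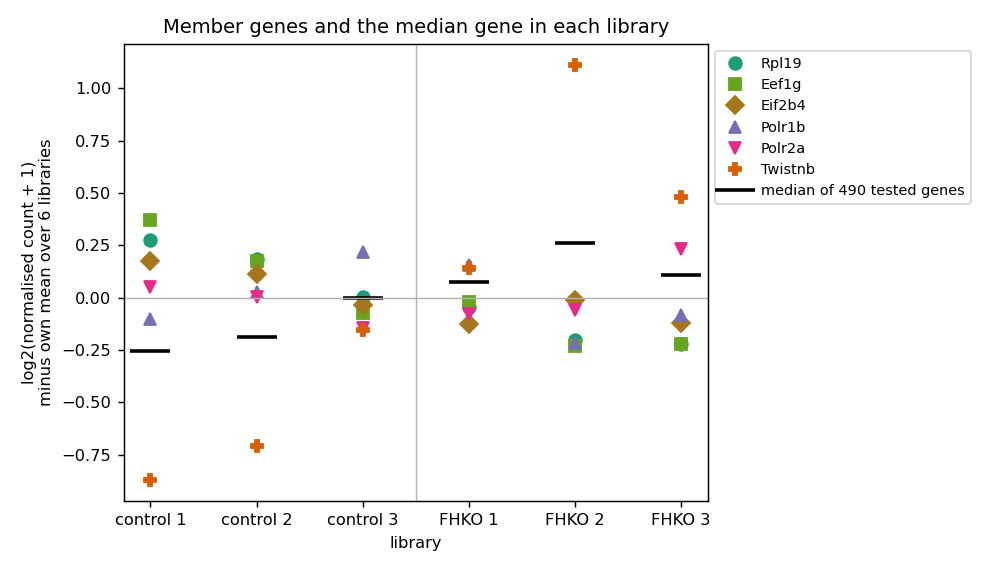
Log2(normalised count + 1) of each member minus its own mean over the 6 libraries (y axis), by library (x axis), with the median of the 490 tested genes as black bars. Twistnb spans from control 1 to FHKO 2 in the direction of the median gene, and Rpl19 and Eef1g lie near each other in the opposite direction.

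Ratios between members within 1 library do not depend on how libraries were scaled. The ratio of Rpl19 to Eef1g had nearly equal group means: on the log2 scale it was 2.86 ± 0.09 in control and 2.86 ± 0.03 in FHKO libraries (SD, n = 3), a difference of 0.0032. In control libraries 1 to 3 it was 2.76, 2.87 and 2.94. Rpl19 to Eif2b4 differed by -0.14 with the groups overlapping. Against Polr2a, the ratio of each translation gene was lower in every FHKO library than in every control library, by -0.37 for Rpl19, -0.38 for Eef1g and -0.23 for Eif2b4. These ratios share Polr2a, and each was lowest in FHKO library 3, where Polr2a was highest (738). For Eef1g to Polr2a the nearest values were 2.41 in control library 3 and 2.39 in FHKO library 1. They lay closer than the counting error of Polr2a alone, 0.06 per library. For Eif2b4 to Polr2a the control libraries were at -1.57, -1.58 and -1.58 and the FHKO libraries at -1.74, -1.65 and -2.05. Control library 3 and FHKO library 2 lay closer than the counting error of Eif2b4 alone, 0.11 per library on this scale. The control SD of this ratio, 0.008, was also far below that error.

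All 5 ratios with Twistnb had separate groups. Rpl19 to Twistnb went from 8.14, 7.89 and 7.15 in control to 6.81, 5.68 and 6.29 in FHKO libraries, a difference of -1.47. Polr1b and Twistnb, subunits of the same polymerase, were at a log2 ratio of -0.23, -0.26 and -0.63 in control and -0.98, -2.33 and -1.56 in FHKO libraries, a difference of -1.25. In all, 8 of the 15 ratios between members did not overlap between the groups, 3 of the 10 without Twistnb among them, where 25.4% of all 119805 ratios between 2 tested genes did not. The mean of the 3 translation genes minus that of the 3 polymerase genes was 3.80 ± 0.30 in control and 3.16 ± 0.16 in FHKO libraries (SD, n = 3), a difference of -0.64 to which Twistnb contributed most.

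**Figure D4:**
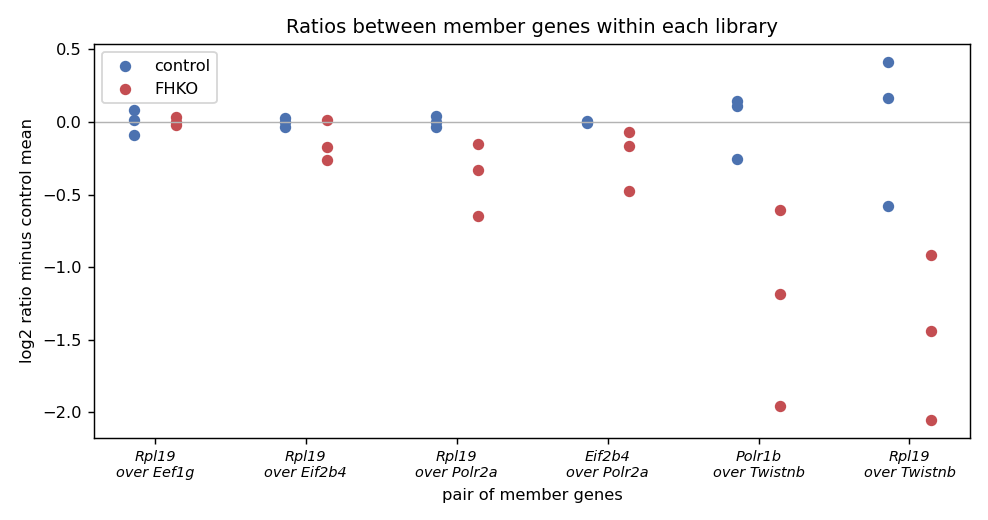
Log2 ratio of 6 pairs of members within each library, minus the pair's control mean (y axis), with control libraries in blue and FHKO libraries in red. The points of Rpl19 over Eef1g stay within 0.1 of the control mean, and those of Rpl19 over Twistnb fall to the low end.

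Few other genes of these pathways were on the panel. Beyond the members, the ribosome and translation list held only Eif4ebp2, a repressor of cap-dependent initiation, with 401 ± 37.7 in control and 433 ± 33.1 in FHKO libraries (SD, n = 3). Its log2 difference was 0.11. The list of RNA polymerase and general transcription held Gtf2h2, a subunit of the general factor TFIIH, and Tbp, the TATA-binding protein. Gtf2h2 was at 65.5, 96.0 and 122 in control and at 115, 232 and 208 in FHKO libraries, a log2 difference of 0.94 with groups that overlapped at 1 library (limma, adjusted p = 0.152). Tbp had 0.16. With library medians set equal Gtf2h2 had 0.65 and Tbp -0.13.

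Of the genes that drive ribosome synthesis with growth, Myc and Pik3cg were present. Myc, a transcription factor that raises the output of all RNA polymerases, averaged 345 ± 24.5 in control and 409 ± 26.4 in FHKO libraries (SD, n = 3). Its log2 difference was 0.25 (limma, adjusted p = 0.218), or -0.05 with library medians set equal. Pik3cg, a kinase upstream of growth signalling, had 0.35, or 0.05. Atf3 was the one gene on the panel from the list of the eIF2 stress response. It averaged 4926 ± 392 and 4059 ± 271 (SD, n = 3). The log2 difference was -0.28 (limma, adjusted p = 0.148), and with library medians set equal it passed as lower with -0.57 (limma, adjusted p = 0.0353). The 3 genes of RNA processing and decay, Sf3a3 (a splicing factor), Sap130 (listed there, and known as a subunit of a histone deacetylase complex) and Edc3 (a decapping factor), differed by 0.14, 0.24 and 0.15 on the log2 scale. Relative to library medians they differed by -0.15, -0.05 and -0.14. None of the genes of these lists passed limma's threshold with the deposited scaling.

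Of the usual reference genes on the panel, 15 are not members. They ranged from -0.36 to 0.61 in log2 difference with a median of -0.0054, and 12 of them lay below the median gene, as did 5 of the 6 members. These 15 include 11 of the 16 scaling genes, which with the member scaling genes average about 0 by construction. The median of all 490 gene differences was 0.16. A place below the median gene is thus largely set by the scaling, and nothing is read from these counts. Highest were Hprt (0.61), Sap130 and Tbp, and lowest were Alas1 (-0.36), G6pdx (-0.25) and Nubp1 (-0.12). Hprt, which encodes a purine salvage enzyme, was at 116, 191 and 246 in control and 253, 304 and 256 in FHKO libraries, the widest spread of the 15. Alas1, the first enzyme of haem synthesis, was at 1210 ± 147 and 942 ± 81.7 (SD, n = 3). Of the reference genes not used by the factors, G6pdx and Gusb had -0.25 and -0.11, and Sdha and Tubb5 had -0.0063 and 0.04. Oaz1, which encodes the antizyme that limits polyamine synthesis, differed by -0.03 with the deposited scaling and by -0.33 with library medians set equal. Of the 7 genes listed as metabolic in this group 1, Hprt, lay above 0, against 71.8% of all genes. Several of the 7 are scaling genes, so nothing is read from this count either. Alas1 was the 1 called with library medians set equal (limma, adjusted p = 0.0353, lower), where 2.86% of all genes were called.

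The genes whose profiles over the 6 libraries lay closest to each member were found by the root mean square difference between centred log2 profiles. Rpl19 and Eef1g were each other's closest of the 489 other genes, at 0.053, where the median gene lay at 0.318 from Rpl19. Next for both came Ndufa7, a subunit of respiratory complex I, at 0.071. Closest to Eif2b4 were Lat2, an adaptor of immune receptors, and Coasy, an enzyme of coenzyme A synthesis, both at 0.054. Polr1b lay closest to Csf1 and Irf8 (0.078 and 0.128), and Polr2a to Man2b1 and Hdac5 (0.068 and 0.073). Closest to Twistnb were Hpgds, a prostaglandin D synthase, and Gnai3, an inhibitory G protein subunit, at 0.093 and 0.106 against a median of 0.618. Hpgds was at 225, 291 and 367 in control and at 434, 944 and 559 in FHKO libraries, so it shared with Twistnb the order of the libraries. These libraries share 1 scaling, and a close profile is a description over 6 libraries.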

How the data were processed

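RNA of 6 libraries was measured on a panel of 753 gene rows and 14 control rows (8 negative, 6 positive). No source used here gives the platform, software or genome build. What the authors deposited is a signal per gene that, judged from its low values, equals whole counts times 1 factor per library (99.7% of gene values whole within 0.0051). Control rows do not carry the factor. Negative controls averaged 8.38 to 14.8 counts. Groups and replicate numbers came from the sample titles. Log2(value + 1) of the 490 genes at 20 or more in at least 3 libraries was fitted with limma 3.58.1 under R 4.3.3 (eBayes, trend on intensity), two-sided, with Benjamini-Hochberg adjustment at 0.05 over all 490 genes. The fit was tested on simulated data, in which genes varied independently and the scaling genes did not differ between groups. That test did not include a shared axis of variation such as these libraries have. A fold on this scale understates the change of low genes. Intervals of recovered counts are exact Poisson at 95% and cover counting error only. An exact permutation test of 3 against 3 cannot go below 0.1 and was not run. Lists and members were chosen with earlier results of these data known. Named genes were the members, the listed pathway genes (in lists of over 6, the 3 highest and 3 lowest), reference genes not used by the factors, and the 2 closest profiles per member. Alternatives were other scalings, filters, pseudocounts, the replicate block and leaving out each library. Sequences are RefSeq promoter windows on GRCm38.p6. Of 753 symbols 743 matched RefSeq directly and 9 through a synonym. Figures used matplotlib 3.10.9.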

Additional observations from a re-analysis of the deposited data

How the results depend on the processing

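Rpl19, Eef1g, Eif2b4 and Polr1b stayed below 0 and uncalled in all 20 alternatives run, from -0.61 to -0.25, -0.61 to -0.21, -0.47 to -0.13 and -0.39 to -0.0093. Twistnb stayed above 0 in all 20, from 0.82 to 1.38, and was called in 1 of them, library medians set equal (0.86, limma adjusted p = 0.0353); over all 20 its adjusted p ran from 0.0353 to 0.339. Leaving out 1 library gave Twistnb 0.89 to 1.38, Rpl19 -0.39 to -0.25 and Polr2a -0.039 to 0.12. Polr2a turned negative with library medians set equal (-0.23), with scaling by the 11 scaling genes that are not members (-0.013), with quantile normalisation (-0.13) and without FHKO replicate 3 (-0.039). The median member difference of -0.13 became -0.43, -0.21 and -0.35 under the first 3 of these. Scaling without the gene itself gave Rpl19 -0.33 and Eef1g -0.34, and no count over all genes. Of all 490 genes 1 was called in the main setting, 14 with library medians set equal, 4 at an adjusted p under 0.1, 0 with the replicate block and 0 to 3 with 1 library left out (3 without FHKO replicate 2). Members called numbered 0 throughout, except 1 with library medians set equal. The replicate block called 0 members, and same-numbered libraries deviated from their group means with correlations of 0.26, -0.03 and -0.29. With 3 libraries per group these correlations cannot decide whether the numbers pair the samples. The planned count-model tests were not run, since the recovery of whole counts did not pass its check in 2 libraries. For Polr1b and Eif2b4 the counting error was as large as the control spread, which limits what these values can show.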
